A study of Mus musculus with 17 samples.

Results

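The Dlk1-Meg3 imprinted cluster was followed through the reprogramming of mouse fibroblasts. Its 5 members, Dlk1, Meg3, Rian, Mirg and Dio3, were taken by symbol from a table of 38734 genes, and all 5 passed the filter on low values. The cells were miR-203 knockout (KO), miR-203 knock-in (KI) or wild type (WT) for that microRNA. KO and WT cells carried the genotypes "miR-203 KO; OSKM" and "miR-203 WT; OSKM", and KI cells "ColA1_miR203; Rosa26rtTA; OSKM". OSKM is a transgenic cassette for the factors Oct4 (Pou5f1), Sox2, Klf4 and cMyc, which doxycycline is meant to switch on. The labels name it in every genotype, but Pou5f1 and Sox2 stayed below 1 FPKM in all 5 KI libraries, as given below. The same drug also induces miR-203 in KI cells. RNA was sequenced from 17 libraries, 1 for each genotype at each stage: mouse embryonic fibroblasts (MEF), days 0, 4, 6 and 7 of culture with 1 µg/ml doxycycline, and induced pluripotent stem cells (iPSC), which were KO and WT only and appear after about 2 weeks. No genotype had a second library at any stage, and the labels do not say whether libraries came from separate embryos or cultures.

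Imprinted genes are expressed from only the maternal or the paternal chromosome. In this cluster the paternal copy gives the protein-coding genes Dlk1, Rtl1 and Dio3, and the maternal copy gives the long noncoding RNAs Meg3, Rian and Mirg, which also carry many small nucleolar RNAs and microRNAs. Methylation of a control region between Dlk1 and Meg3 sets which copy is active, and in mouse iPSC lines silencing of the maternal RNAs is known to accompany a poor ability to form a whole embryo. Dlk1 is a transmembrane protein of the Notch ligand family made by immature mesenchymal cells, and Dio3 is the deiodinase that inactivates thyroid hormone.

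On GRCm38 with the GENCODE M21 annotation, the members lie along the plus strand in the order Dlk1 (chr12:109452823-109463336), Meg3 (chr12:109541001-109571726), Rian (chr12:109603940-109661716), Mirg (chr12:109729764-109749460) and Dio3 (chr12:110279068-110281097). Rtl1, a retrotransposon-derived gene needed in placenta, is read from the minus strand between Meg3 and Rian (chr12:109589193-109600330). The span from the start of Dlk1 to the end of Dio3 measured 828 kb and held 95 genes of the table. Of these, 59 were microRNA genes and 23 small nucleolar RNA genes. Mir203, the gene altered in this study, lies on the same chromosome 1.85 Mb beyond Dio3.

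The start regions of Dlk1 and Meg3 are shown because these genes head the paternal and maternal transcripts. Their RNA levels were correlated over the 17 libraries (Pearson's r = 0.91), but the ratio of Dlk1 to Meg3 ranged from 0.0515 to 1.25. The sequences are from RefSeq on GRCm38.p6, plus strand, from 250 bases before to 50 bases after each start (chr12:109540746-109541045 for Meg3 and chr12:109452573-109452872 for Dlk1). Capitals mark motif matches, and those in Meg3 are, in order, TGCCGC on the minus strand (written GCGGCA), the cAMP response element TGACGTCA, and a pair of TATAAA boxes on opposite strands that overlap.
Meg3: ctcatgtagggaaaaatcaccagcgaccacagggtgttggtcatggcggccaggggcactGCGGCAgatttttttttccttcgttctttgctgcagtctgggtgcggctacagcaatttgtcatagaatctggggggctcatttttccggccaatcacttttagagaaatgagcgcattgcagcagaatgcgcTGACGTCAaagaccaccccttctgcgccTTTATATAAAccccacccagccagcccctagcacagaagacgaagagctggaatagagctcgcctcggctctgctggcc
Dlk1: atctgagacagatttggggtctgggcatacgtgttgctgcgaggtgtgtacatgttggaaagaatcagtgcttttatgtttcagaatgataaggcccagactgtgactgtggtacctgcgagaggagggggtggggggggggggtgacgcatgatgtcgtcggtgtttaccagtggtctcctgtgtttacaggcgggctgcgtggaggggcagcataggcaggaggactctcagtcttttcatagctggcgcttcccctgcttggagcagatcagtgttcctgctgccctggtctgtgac
Each motif was searched on both strands of 32817 RefSeq start regions of this length. TGACGTCA was found in 1.79% of them, TGCCGC in 11.6% and TATAAA in 13.6%. The Dlk1 region held none of the motifs. It held 9 CpG and the Meg3 region shown 13, against a median of 7 over all start regions. The Dio3 region held 25 CpG and 1 TATAAA. RefSeq lists another start region for Meg3 (chr12:109545148-109545447), which held 1 CpG and none of the motifs. A match describes letters in this window and is not a bound site.

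MicroRNAs of 5 genes encoded opposite Rtl1 are shown next because these genes were among the few of the cluster's small RNA genes with values in several late libraries. RefSeq places Mir136 there as well, on the same strand. The identifier that the files pair with that name is on the minus strand in GENCODE and was listed at 0 in every library, so Mir136 is left out of the sequences and counts. The mature forms from RefSeq are written with bases 2 to 8, the seed, in capitals, and miR-203-3p follows for comparison.
mmu-miR-431-5p: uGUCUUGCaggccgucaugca
mmu-miR-433-3p: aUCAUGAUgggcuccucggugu
mmu-miR-127-3p: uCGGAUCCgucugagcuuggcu
mmu-miR-434-3p: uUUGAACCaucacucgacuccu
mmu-miR-432: uCUUGGAGuagaucagugggcag
mmu-miR-203-3p: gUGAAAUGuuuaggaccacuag
RefSeq lists 113 mature microRNAs in the cluster with 104 distinct seeds. None of the 113 has the seed of miR-203-3p. The match to that seed, CATTTCA, occurs 1 time each in the longest annotated transcripts of Dlk1, Meg3, Rian and Dio3 and not in those of Mirg and Rtl1. These transcripts have 14548 (Meg3), 8089 (Rian), 4653 (Dlk1) and 2030 (Dio3) bases, and those without a match 6358 (Rtl1) and 3822 (Mirg). The same letters were found in 15.5% of the longest transcripts of 55341 genes, which differ in length. Longer transcripts have more places for such a match, so this share is no measure of enrichment here. Whether a match lies in a 3′ untranslated region was not determined.

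All levels are given as the deposited FPKM, a fragment count divided by the length of the transcript and by the mapped fragments of the library. Mir203 was listed at 0 in every KO and WT library and stood at 569 FPKM in KI MEF, 185 at KI day 0 and 5470 to 7903 at KI days 4, 6 and 7, so that the deletion in KO could not be checked. On days 4, 6 and 7, KO cells had 255, 852 and 954 FPKM of Pou5f1, KI cells had 0.851, 0.491 and 0.675, and WT cells had 266, 37.4 and 85.3. In these values the cassette and the gene itself cannot be told apart. Pou5f1 in KI had been 0.0387 in MEF and 0.960 at day 0. Sox2 in KI was at most 0.167 FPKM on days 4, 6 and 7, against 0.223 in KI MEF and 0.149 at KI day 0. Both stayed below 1 FPKM in all 5 KI libraries although their labels name the cassette. A group of 3 WT libraries (MEF, day 4, iPSC) stood apart in sex-linked RNA: Ddx3y was at 0.0179, 2.74 and 1.51 FPKM there and between 14.5 and 20.0 in the other 14 libraries, and Xist was at 46.9 in WT MEF and 48.0 at WT day 4. Results that rest on these libraries are given with and without them where the call differs. The summed FPKM of 8 pluripotency markers was 1023 and 1588 on days 6 and 7 in KO, at most 1.41 on days 4 to 7 in KI, and 43.7 and 136 on days 6 and 7 in WT. In iPSC it was 4872 in KO and 4140 in WT.

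Dlk1, the paternal gene, had the widest range of the members on the log2 scale. In KO cells it stood at 276 FPKM in MEF, at 76.2, 129, 35.1 and 17.9 on days 0, 4, 6 and 7, and at 2.46 in iPSC. KI cells had 466 FPKM in MEF and 128, 406, 145 and 87.9 on the same days. In WT cells the values were 86.4 in MEF, 79.9, 359, 322 and 252 on these days, and 1.86 in iPSC. The KO library of day 7 had 13.9% of the KO day 4 value of Dlk1, and the WT library of day 7 had 70.2% of the WT day 4 value. Both iPSC libraries lay below all 15 others.

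Meg3, the maternal noncoding RNA at the head of the cluster, peaked at day 4 in all 3 genotypes. The KO values were 353 FPKM in MEF, 397, 624, 184 and 111 on days 0, 4, 6 and 7, and 47.8 in iPSC. The KI values were 371 in MEF and 361, 1251, 791 and 461 on these days. The WT values were 194 in MEF, 218, 867, 502 and 441 on these days, and 27.8 in iPSC. KO was above WT in MEF, at day 0 and in iPSC, and below it on days 4, 6 and 7.

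Rian, the host of small nucleolar RNAs, was the most abundant member per length in MEF and did not share the day 4 peak of Meg3. KO cells had 1194 FPKM in MEF, 879.7, 486, 282 and 187 on days 0, 4, 6 and 7, and 77.7 in iPSC. KI cells had 1119 in MEF and 854, 942.5, 630.2 and 468 on these days. WT cells had 789.5 in MEF, 615, 639, 672 and 515 on these days, and 63.8 in iPSC. The KO values were lower at each later stage, while WT kept within the range of 515 to 789.5 until day 7.

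Mirg, the host of the distal microRNAs, was the lowest of the maternal RNAs. Its KO values were 40.8 FPKM in MEF, 18.6, 21.4, 11.5 and 7.60 on days 0, 4, 6 and 7, and 11.2 in iPSC. Its KI values were 47.1 in MEF and 23.0, 42.7, 32.1 and 18.6 on these days. Its WT values were 24.9 in MEF, 21.4, 51.0, 30.8 and 27.1 on these days, and 3.15 in iPSC. Mirg was the only member of the 4 abundant ones whose iPSC libraries overlapped an earlier library, since KO iPSC lay above KO day 7.

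Dio3 was low throughout and did not follow the other members. KO cells had 0.328 FPKM in MEF, 0.381, 6.07, 4.57 and 2.78 on days 0, 4, 6 and 7, and 1.30 in iPSC. KI cells had 0.373 in MEF and 0.308, 1.35, 2.28 and 2.24 on these days. WT cells had 0.375 in MEF, 0.603, 7.68, 2.34 and 3.13 on these days, and 5.11 in iPSC. All 6 libraries of MEF and day 0 lay below all 11 later ones. Ranked among the genes of a library with a value above 0, Rian stood at the 91.5 to 99.7 percentile in all 17 libraries, and Dio3 at the 22.5 to 59.3 percentile.

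**Figure D1:**
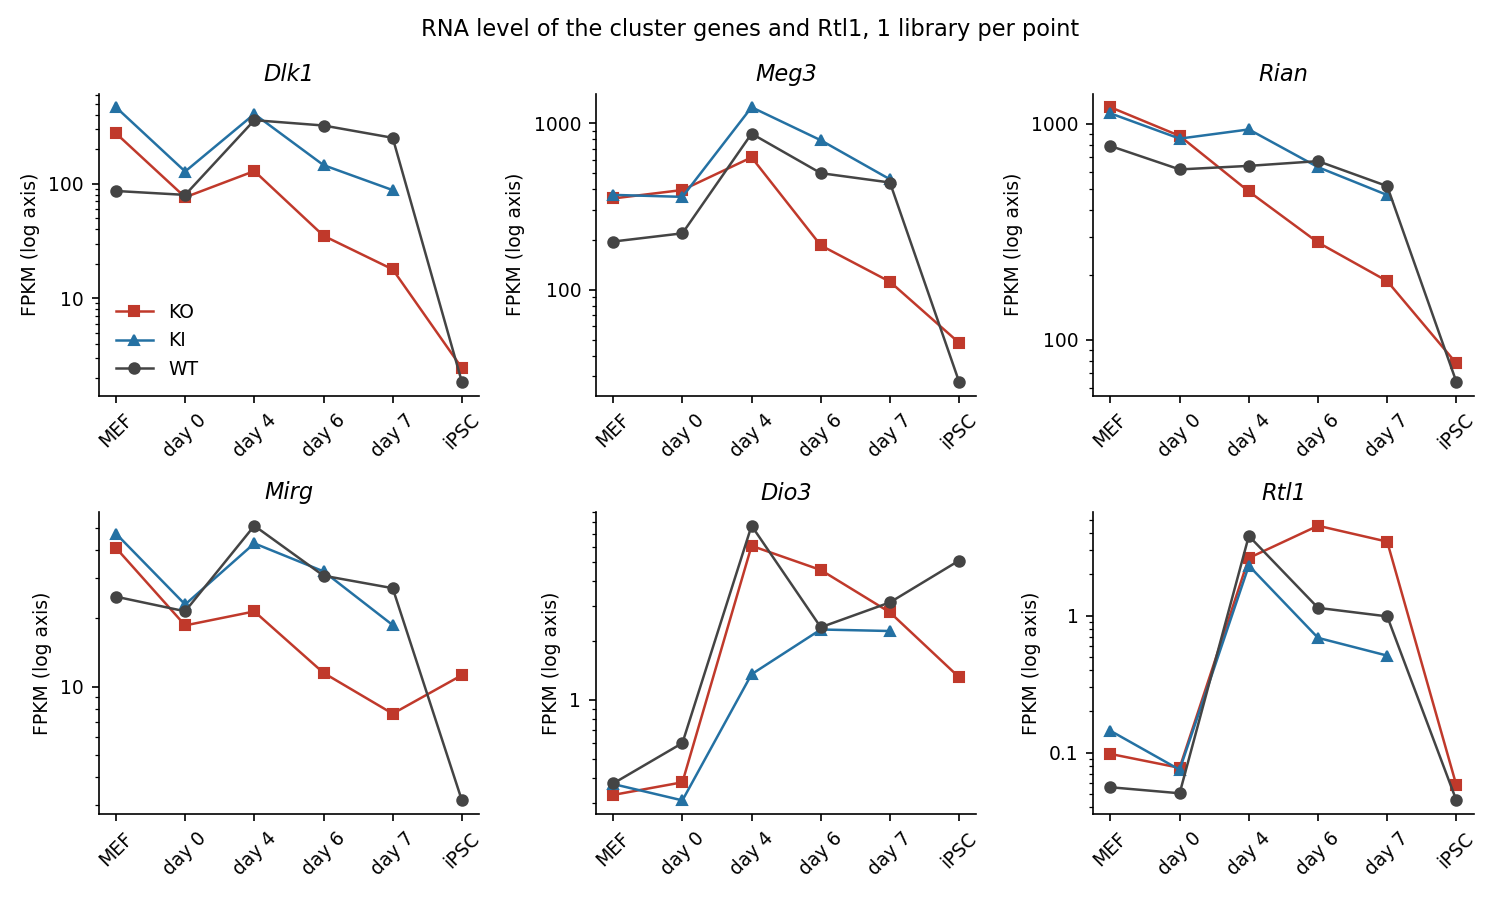
FPKM (log axis) of Dlk1, Meg3, Rian, Mirg, Dio3 and Rtl1 at 6 stages, 1 point per library, with KO as red squares, KI as blue triangles and WT as grey circles. The 2 iPSC points of Dlk1, at 2.46 in KO and 1.86 in WT, lie far below all others, Meg3 peaks at day 4 in each genotype, and Dio3 and Rtl1 are low in MEF and at day 0.

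Stages were compared over the genotypes with limma on log2(FPKM + 1), with genotype as a further term and p-values adjusted over 14240 genes. The spread in these tests is the variation of genotype differences between stages, not that between cultures. In iPSC against MEF, 4 of the 5 members were lower and 1 was higher, where 21.4% of all genes tested were called lower and 20.5% higher. Dlk1 fell by 5.89 ± 0.96 (log2 ± SE, limma adjusted p = 0.00055) and was lower in both iPSC libraries than in the MEF of the same genotype. Rian fell by 3.68 ± 0.43 (limma adjusted p = 5.6e-05), Meg3 by 2.71 ± 0.60 (0.0039) and Mirg by 2.24 ± 0.59 (0.010), again in both genotypes. Dio3 rose by 1.29 ± 0.46 (limma adjusted p = 0.044), to 1.30 and 5.11 FPKM in KO and WT iPSC, against 0.328 and 0.375 in KO and WT MEF. Dio3 reached the mean of 1 FPKM needed for testing through the libraries after day 0. Its call is therefore a description and no evidence of a change. The median difference of the members was -2.71, and that of all genes 0.12.

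The calls did not all rest on both genotypes. Without the WT libraries, Meg3 fell by 2.39 (limma adjusted p = 0.10), Mirg by 1.47 (0.072) and Dio3 differed by 0.51 (0.57), while the calls of Dlk1 and Rian held in all alternatives run. Without only the 3 WT libraries that stood apart in sex-linked RNA, the limma adjusted p was 0.073 for Meg3, 0.051 for Mirg and 0.51 for Dio3. The call of Dio3 was also lost without the KO libraries (0.066), with no filter on low values (0.064) and after quantile normalization (0.067), and that of Mirg without the KI libraries (0.064).

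Against day 7, iPSC had 3 of the 5 members lower and none higher, beside 24.1% of all genes called lower and 25.6% higher. Dlk1 fell by 4.31 ± 0.96 (limma adjusted p = 0.0039), Meg3 by 2.66 ± 0.60 (0.0043) and Rian by 2.17 ± 0.43 (0.0021). The difference of Mirg was -1.09 ± 0.59 (limma adjusted p = 0.14), being lower in WT iPSC and higher in KO iPSC than at day 7 of the same genotype. The difference of Dio3 was -0.15 ± 0.46 (limma adjusted p = 0.81). Without those 3 WT libraries, Meg3 differed by -1.97 (limma adjusted p = 0.10) and Rian by -1.74 (0.055), and without all WT libraries these p-values were 0.20 and 0.11. Without the KO libraries Mirg fell by 2.47 (limma adjusted p = 0.0067).

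In day 4 against day 0, Dio3 was the only member called, beside 12.3% of all genes called higher. It rose by 1.88 ± 0.41 (limma adjusted p = 0.0072), with day 4 above day 0 in 3 of 3 genotypes. Dio3 reached the mean of 1 FPKM needed for testing through the libraries after day 0, so its call is a description and no evidence of a change. With no filter the limma adjusted p of Dio3 was 0.014. Without the KO libraries the adjusted p of Dio3 was 0.061, and without the WT libraries 0.10. Meg3 differed by 1.48 ± 0.53 (limma adjusted p = 0.067) and was higher at day 4 in 3 of 3 genotypes. Without the KO libraries Meg3 differed by 1.89 with an adjusted p of 0.0047. The other members had differences of 1.52 ± 0.84 (Dlk1, limma adjusted p = 0.23), 0.76 ± 0.51 (Mirg, 0.34) and -0.22 ± 0.38 (Rian, 0.74).

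No member was called in day 0 against MEF or in day 7 against day 4, in which limma called 0.0492% and 0.0211% of all genes, and 688 and 1025 genes had an unadjusted p below 0.05. All 5 members had a negative difference in day 7 against day 4, from -1.83 ± 0.84 for Dlk1 (limma adjusted p = 0.70) to -0.50 ± 0.41 for Dio3 (0.85).

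**Figure D2:**
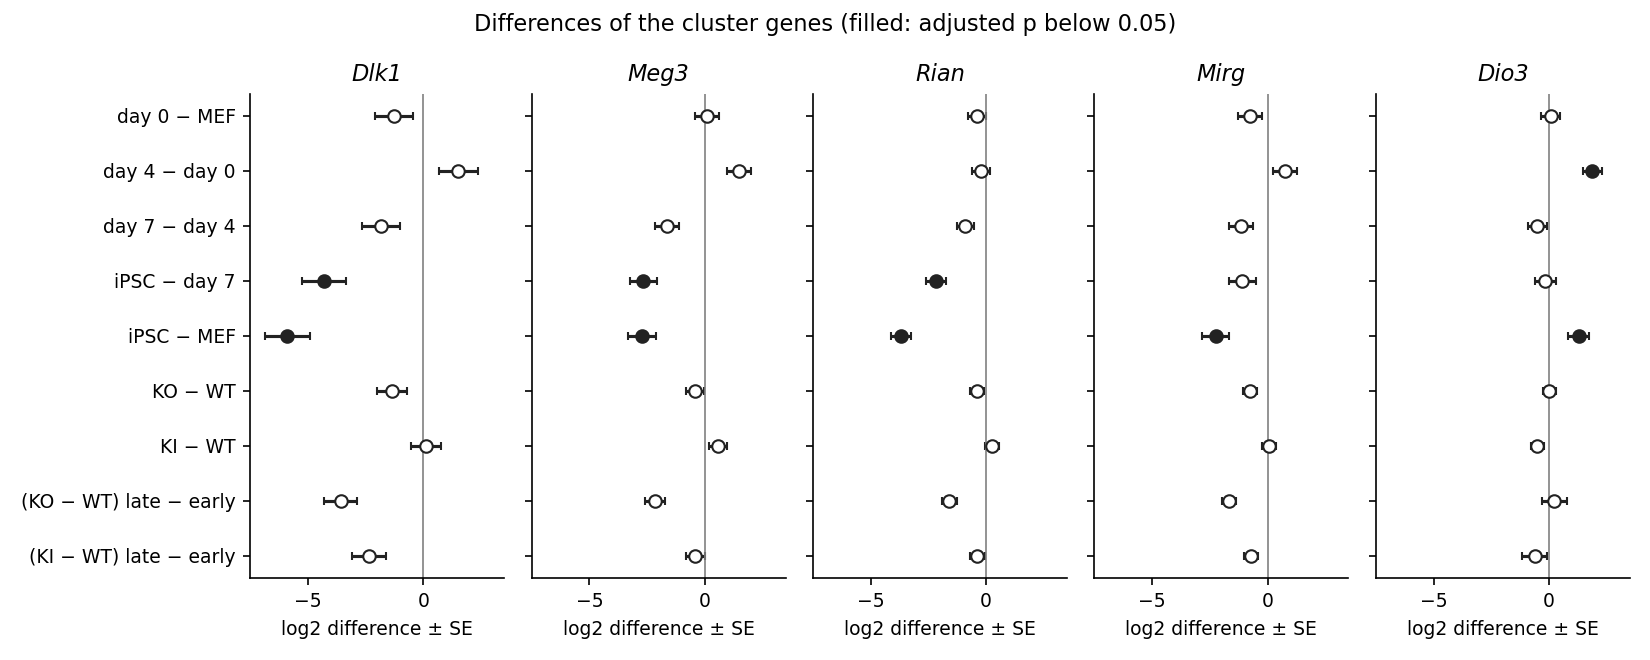
Log2 difference with its standard error for the 5 members in 9 comparisons, with filled points for an adjusted p below 0.05. Filled points appear only in the comparisons of iPSC and, for Dio3, in day 4 against day 0. The KO interaction points of Dlk1, Meg3, Rian and Mirg lie between -3.59 and -1.59 and are not filled.

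The iPSC values were set beside those of fibroblast RNA in the same libraries. The summed FPKM of 8 fibroblast markers was 109 in KO iPSC and 592 in WT iPSC, with all 8 at 1 FPKM or more in both, against 3473 in KO MEF and 2885 in WT MEF. Dlk1 kept 0.892% of its MEF level in KO iPSC and 2.15% in WT iPSC. The collagen gene Col1a1 kept 1.36% in KO and 7.49% in WT, where it was the lowest of the 8 markers. In KO the lowest was Postn, at 0.967%, and Dcn was the highest in both genotypes. Meg3 kept 13.5% in KO and 14.3% in WT, and Rian 6.51% in KO and 8.08% in WT. Mirg kept 27.5% in KO and 12.7% in WT. Dcn, the fibroblast proteoglycan decorin, was at 42.6% of MEF in KO iPSC and 889% in WT iPSC, and a sum of 8 macrophage markers was 17.5 in KO iPSC and 209 in WT iPSC. The part of these cells in the levels of the members was not tested. In bulk RNA, fewer cells of a type and less RNA per cell cannot be told apart.

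**Figure D3:**
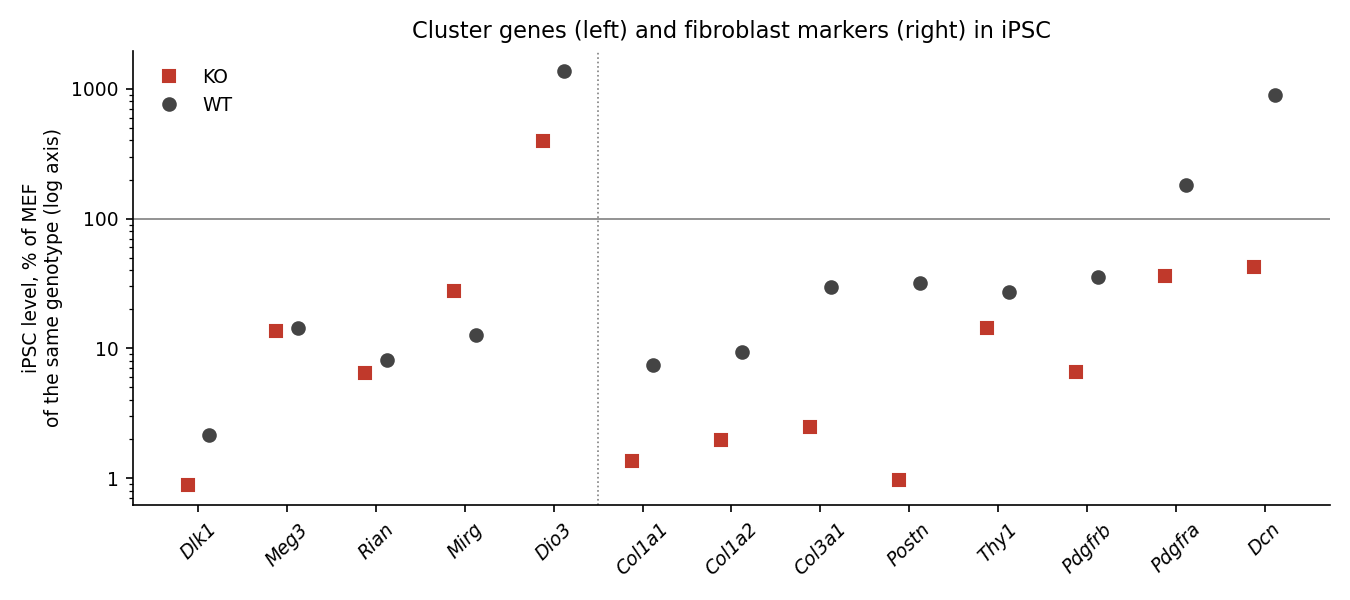
Level in iPSC as a percentage of the MEF library of the same genotype (log axis) for the 5 cluster genes and 8 fibroblast markers, KO as red squares and WT as grey circles, with the line at 100%. Meg3 is at 13.5% in KO and 14.3% in WT. In WT, Col1a1 (7.49%) and Col1a2 (9.38%) lie below Meg3, and the other markers lie above it, from Thy1 (27.1%) to Dcn (889%). In KO, Thy1 (14.5%), Pdgfra (36.1%) and Dcn (42.6%) lie above Meg3 and the others below it, with Col1a1 at 1.36%.

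The 2 iPSC libraries were compared with each other in the cluster. WT iPSC was among the libraries that stood apart in sex-linked RNA, with Ddx3y at 1.51 FPKM against 17.3 in KO iPSC. The pair therefore differs in more than genotype. With 1 library per genotype there is no test, and a gene was counted when it differed by at least 1 on the scale of log2(FPKM + 1) with 5 FPKM or more in a library. By this rule Mirg was higher in KO iPSC, at 11.2 FPKM against 3.15 in WT iPSC (log2 difference 1.56), and Dio3 was lower, at 1.30 against 5.11 (-1.41). The 5.11 FPKM of Dio3 lay close to the 5 FPKM needed, and its call was lost after quantile normalization and upper-quartile scaling. Over all genes that reached 5 FPKM, 3.9% were higher and 5.24% lower by this rule. Meg3 had 47.8 FPKM in KO iPSC and 27.8 in WT iPSC, a difference of 0.76. Rian had 77.7 and 63.8, a difference of 0.28. Neither iPSC library listed a maternal RNA at 0, and Meg3 stood at the 89.0 percentile of expressed genes in KO and the 81.4 percentile in WT. Both libraries also held fibroblast marker RNA, and which cells gave the maternal RNAs was not tested.

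The KO and WT libraries were compared at single stages, with 1 library per genotype and no test. At day 7, the KO library had 17.9 FPKM of Dlk1 against 252 in WT (log2 difference -3.74), 111 of Meg3 against 441 (-1.97), 187 of Rian against 515 (-1.46) and 7.60 of Mirg against 27.1 (-1.71). These 4 members were lower by the same rule of size, beside 9.42% of all genes, and Dio3 did not reach 5 FPKM in either library. In MEF the order was the other way for the same 4: the ratio of KO to WT was 3.19 for Dlk1, 1.82 for Meg3, 1.51 for Rian and 1.64 for Mirg. WT MEF is 1 of the 3 libraries that stood apart, and KI MEF lay above it too, with ratios of 5.39, 1.91, 1.42 and 1.89 in the same order. At day 0 the ratio of KO to WT was 0.954 for Dlk1, 1.82 for Meg3, 1.43 for Rian and 0.867 for Mirg. The KI library of day 7 had 1 member, Dlk1, lower than WT by the rule, at 87.9 FPKM against 252 (-1.51), beside 6.97% of all genes. Meg3 had 461 FPKM in KI and 441 in WT.

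Over MEF and days 0 to 7 together, limma called no member in KO against WT, where it called 0.34% of 13837 genes (1784 at an unadjusted p below 0.05), or in KI against WT, where it called 0.397% (1240). The largest KO difference was that of Dlk1, -1.36 ± 0.65 (limma adjusted p = 0.41), and Mirg followed with -0.76 ± 0.29 (0.32). Dlk1 in KI differed by 0.12 ± 0.65 (limma adjusted p = 0.95).

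Whether the difference of KO from WT changed between the early libraries (MEF, day 0) and the late ones (days 4, 6 and 7) was tested as an interaction. No member was called, and limma called 0.0795% of all genes (3084 at an unadjusted p below 0.05). The interaction was -3.59 ± 0.73 for Dlk1 (limma adjusted p = 0.088), -2.16 ± 0.41 for Meg3 (0.083), -1.59 ± 0.31 for Rian (0.083), -1.67 ± 0.31 for Mirg (0.078) and 0.24 ± 0.54 for Dio3 (0.81), where the median of all genes was 0.16. Without the day 4 libraries the 4 negative interactions were called, with limma adjusted p-values of 0.0032 for Dlk1, 0.00095 for Meg3, 0.00056 for Rian and 0.0082 for Mirg, in a fit that called 6607 genes. Without the 3 WT libraries that stood apart they were called as well, at 0.013, 0.046, 0.016 and 0.045 in the same order, and that fit called 1334 genes. In the other alternatives the adjusted p of these 4 members was above 0.05 and reached 0.60. For KI the interaction of Dlk1 was -2.37 ± 0.73 (limma adjusted p = 0.53), no member was called, and 0.0723% of all genes were called (1146 at an unadjusted p below 0.05, median of all genes -0.16).

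Marker RNA was summed in the same libraries. From day 4 to day 7 the fibroblast sum fell in KO and rose in KI and WT, while Dlk1, Meg3, Rian and Mirg fell in all 3 genotypes. On days 4, 6 and 7 the fibroblast sum was 12104, 7495 and 4360 in KO, 21841, 24009 and 25930 in KI, and 14710, 22466 and 20477 in WT. The sum at KO day 7 lay above that of KO MEF (3473) through 3 of the 8 markers, with Dcn at 1904%, Col3a1 at 616% and Pdgfra at 302% of KO MEF. The other 5 markers lay below KO MEF, from 43.5% for Pdgfrb to 91.3% for Col1a2, with Col1a1 at 61.4%. Dlk1 in the same library was at 6.49%, Meg3 at 31.5%, Rian at 15.7% and Mirg at 18.6% of KO MEF. The macrophage sum on day 7 was 64.4 in KO, 1951 in KI and 3690 in WT. Their part in the differences was not tested.

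The balance of RNAs within a library also changed with stage. The ratio of Rian to Meg3 in FPKM was 3.01 to 4.06 in MEF, 2.22 to 2.82 at day 0 and 0.737 to 0.779 at day 4 in the 3 genotypes. It was then 0.796 to 1.53 at day 6, 1.02 to 1.68 at day 7, and 1.63 in KO iPSC and 2.29 in WT iPSC. The 3 genotypes thus had nearly the same ratio at day 4, below every value at the other stages. Mirg over Meg3 was 0.115 to 0.128 in MEF and 0.0341 to 0.0589 at day 4. It was highest in KO iPSC, at 0.235 against 0.113 in WT iPSC. Dlk1 over Meg3 was 0.445 to 1.25 in MEF, and on day 7 it was 0.160 in KO, 0.191 in KI and 0.571 in WT. In iPSC it was 0.0515 in KO and 0.0669 in WT. Gm26906, annotated on the minus strand over the 3′ end of Meg3 (chr12:109568628-109571723), had 0.0731 to 0.130 of the Meg3 level in all 17 libraries. The library kit marks strand, but whether counting used it was not given in the sources used here, and reads of Meg3 and Gm26906 cannot be told apart.

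**Figure D4:**
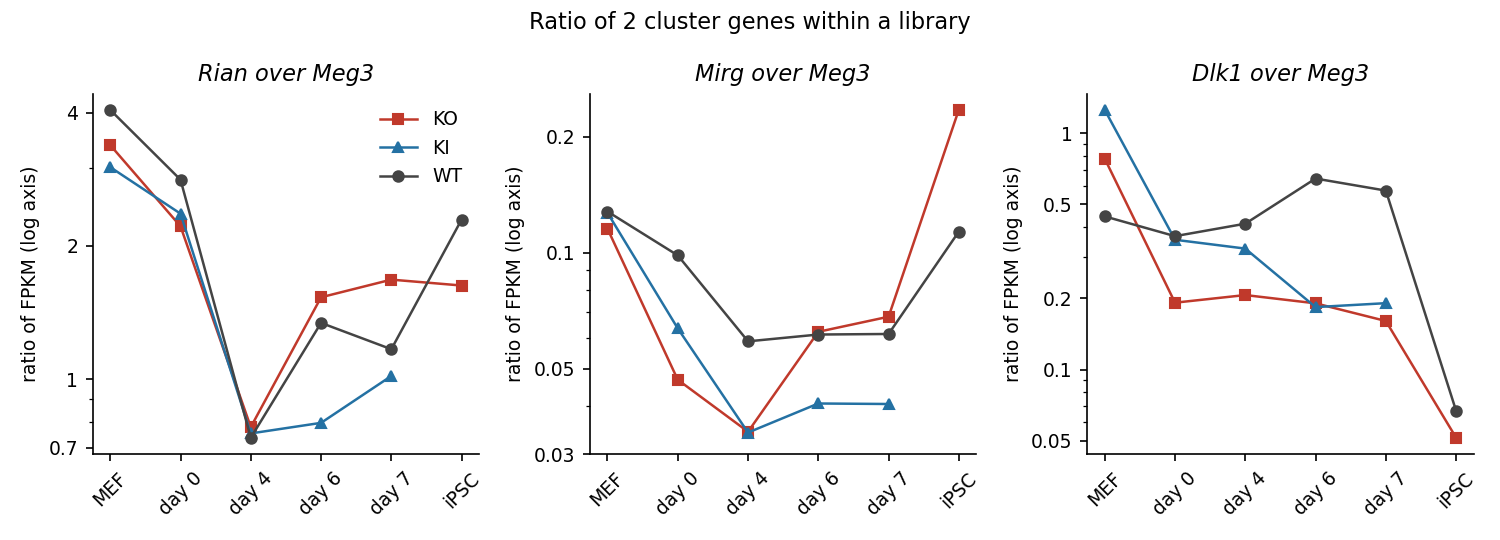
Ratio of FPKM within a library (log axis) for Rian, Mirg and Dlk1 over Meg3 by stage, KO as red squares, KI as blue triangles and WT as grey circles. Rian over Meg3 lies between 0.737 and 0.779 at day 4 in all 3 genotypes, and Dlk1 over Meg3 is lowest in iPSC.

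Rtl1, the third paternal gene, followed a course of its own. It was at most 0.144 FPKM in all MEF and day 0 libraries. In KO it was 2.63, 4.52 and 3.46 on days 4, 6 and 7, in KI 2.31, 0.687 and 0.510, and in WT 3.8, 1.14 and 0.986. In iPSC it was 0.0578 in KO and 0.0449 in WT. Rtl1 thus stayed up in KO on the days on which Dlk1 and the maternal RNAs were low there. Its mean of 1.21 FPKM passed the filter through the libraries of days 4 to 7, so these values are given as a description. Its KO interaction was 0.66 ± 0.56 (limma adjusted p = 0.49).

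The microRNA genes opposite Rtl1, whose mature sequences are given above, had values in few libraries. Mir127 was at 113, 299 and 120 FPKM on days 4, 6 and 7 in KO, at 56.8, 60.6 and 0 in WT, and at 0 in the other 11 libraries. Mir431 was at 220, 526 and 374 on these days in KO, at 103 on day 4 in KI, at 229 on day 4 in WT, at 63.8 in WT iPSC, and at 0 elsewhere. Of the 5 genes, 4 had their highest value in KO day 6, and Mir432 had it in WT day 4, at 664. Mir432 was otherwise above 0 in KO on days 4 and 6 (616 and 417), in KI on day 4 (189) and in WT on day 7 (205). All 5 genes were at 0 in the day 0 libraries. Such hairpins are so short that a few fragments give a large FPKM. The libraries hold polyadenylated RNA, so these are fragments of longer transcripts, not mature microRNAs, and without strand they cannot be told apart from Rtl1. Across the cluster, 42 of the 82 genes of microRNAs and small nucleolar RNAs were at 0 in every library. Of the listed other transcripts of the cluster, 19 were tested in the stage comparisons, with 4 higher and none lower at day 4 against day 0, and none higher and 2 lower (Rtl1 and Mir433) in iPSC against day 7, beside 12.3% of all genes higher in the first comparison and 24.1% lower in the second. The 4 were Rtl1, Mir431, Mir432 and Mir433, which passed the filter through the later libraries where they are high, so these counts are no evidence of a change. None of the 19 was called in iPSC against MEF.

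Genes on both sides of the cluster were compared on the same scale. The 34 protein-coding genes tested from 1 Mb before Dlk1 to Mir203 had differences of KO minus WT, averaged over days 6 and 7, between -1.02 and 2.2 with a median of 0.34. For Dlk1, Meg3, Rian and Mirg this difference lay between -3.45 and -1.35. Averaged over KO and WT, iPSC minus MEF lay between -1.41 and 1.96 in the flanking genes, with a median of 0.11. In iPSC against MEF limma called 4 of the 34 higher and 7 lower, beside 20.5% and 21.4% of all genes, and in KO against WT none. Begain, a flanking gene upstream of Dlk1, was 3.67 FPKM in KO, 4.21 in KI and 4.62 in WT at day 4, against 1.04, 0.768 and 0.492 at day 0. It rose by 1.56 ± 0.24 (limma adjusted p = 0.00098). A hand-listed set of flanking genes had 3 of 29 higher and 10 lower in iPSC against MEF, beside the same shares of all genes. Its largest falls were in genes outside the window above: Akt1 by 2.47 ± 0.17 (limma adjusted p = 1.3e-06), Inf2 by 1.79 ± 0.17 (1.1e-05) and Ahnak2 by 1.68 ± 0.21 (9.5e-05). The fall of Akt1 was larger than that of Mirg (2.24).

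**Figure D5:**
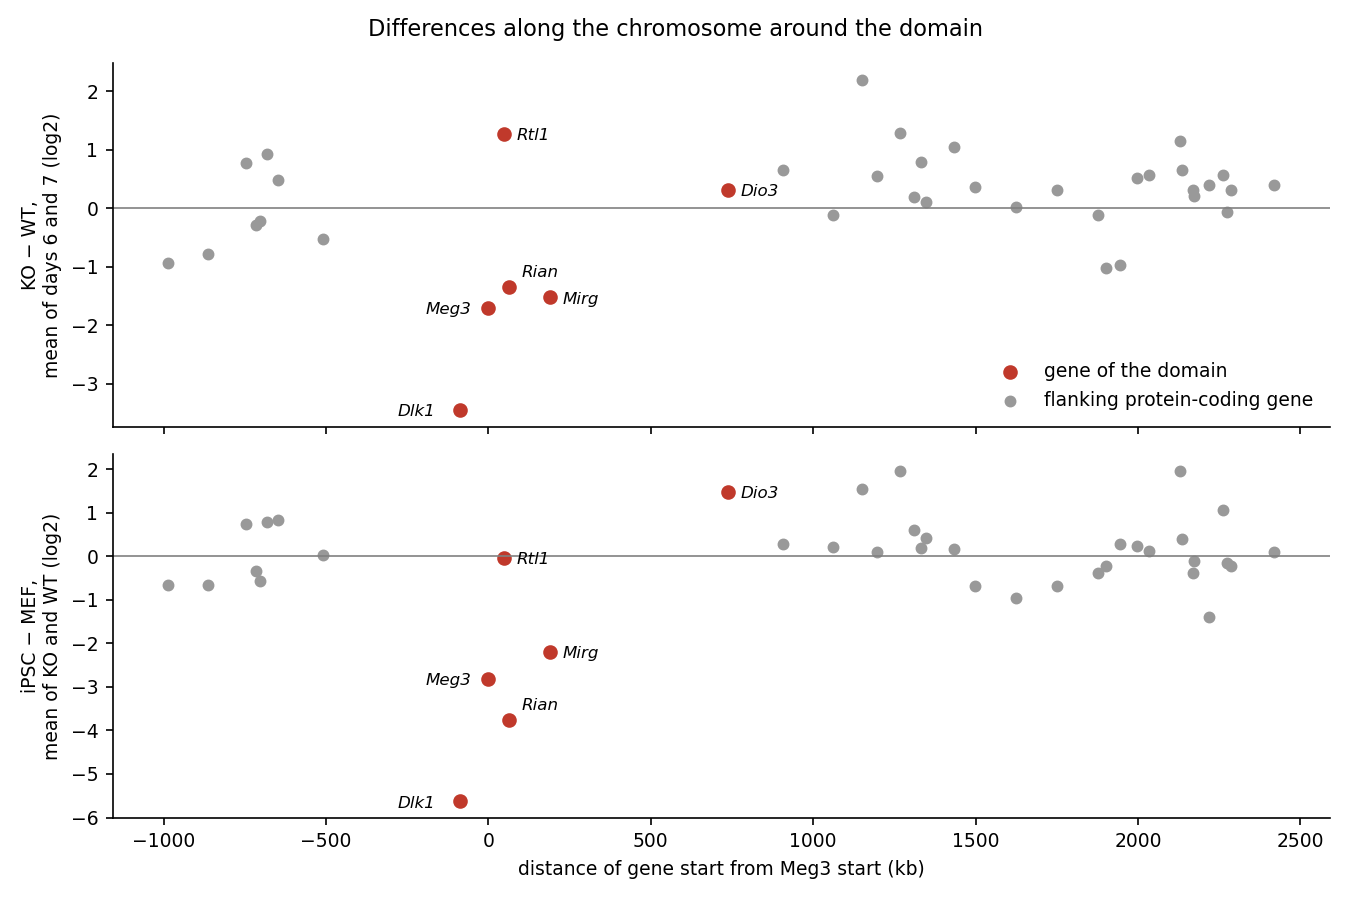
Log2 difference of KO minus WT averaged over days 6 and 7 (top) and of iPSC minus MEF averaged over KO and WT (bottom) against the distance of each gene's start from that of Meg3 in kb. Red points are genes of the cluster and grey points are flanking protein-coding genes. Dlk1, Meg3, Rian and Mirg lie below all grey points in both panels, and Dio3 and Rtl1 do not.

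The members other than Dio3 varied together over the 17 libraries. Pearson's r of log2(FPKM + 1) was 0.91 between Dlk1 and Meg3 (Spearman's rho 0.78), 0.92 between Dlk1 and Rian (0.72), 0.92 between Dlk1 and Mirg (0.95), 0.83 between Meg3 and Rian (0.45), 0.85 between Meg3 and Mirg (0.69) and 0.87 between Rian and Mirg (0.76). With Dio3, r ran from -0.47 for Rian to -0.01 for Meg3. These libraries share stages and genotypes and the iPSC pair lies apart, so the coefficients are descriptions. Among 12268 genes, the 10 most like Meg3 were Arhgef25 (r = 0.98), Dnm3os (0.96), Sh3rf3, Fzd8, Uggt2, Zdhhc1, Nagk, Marcks, Smarcc2 and Adamts10 (0.94). The 10 most like Dlk1 were Gpc3 (0.95), Adamts10, Ssr1, Camk1, Ttyh3, Jam3, Gpr85, B4galt2, Micall2 and Vps37c (0.93). Dlk1 ranked 63 in likeness to Meg3, and Rian and Mirg ranked 524 and 377. In likeness to Dlk1, Rian ranked 13 and Mirg 15.

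Regulators of the imprint and of DNA methylation, which act in either direction, were listed beside the members. Of 21 tested, 14 were higher and 2 lower in iPSC against MEF, beside 20.5% and 21.4% of all genes, with a list median of 1.43 against 0.12 for all genes. Dnmt3l, the cofactor of the de novo methyltransferases, rose by 6.61 ± 0.26 (limma adjusted p = 5.4e-08). Tet1, which oxidises methylcytosine, rose by 4.79 ± 0.43 (8.1e-06), and the methyltransferase gene Dnmt3b by 4.39 ± 0.67 (0.00035). Aff3, a protein known to bind the control region of this cluster, fell by 2.02 ± 0.32 (limma adjusted p = 0.00043) and Tet3 by 0.95 ± 0.16 (0.00060). Against day 7, 16 were higher and 1, Tet3, was lower, beside 25.6% and 24.1% of all genes. Zfp57, a zinc-finger protein that protects imprints, was at 366 FPKM in KO iPSC and 238 in WT iPSC, against 70.2 in KO and 16.1 in WT at day 7. It rose by 3.47 ± 0.72 (log2, limma adjusted p = 0.0027). At day 4 against day 0, Dnmt3l rose by 1.23 ± 0.22 (limma adjusted p = 0.0028) and Aff3 fell by 1.04 ± 0.28 (0.020).

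Of 11 genes of the Notch pathway tested, in which Dlk1 acts as a ligand without the usual receptor-binding domain, 2 were higher and 6 lower in iPSC against MEF, beside 20.5% and 21.4% of all genes. Lfng, which modifies Notch receptors, fell by 2.01 ± 0.33 (limma adjusted p = 0.00061), the ligand gene Jag1 by 1.94 ± 0.31 (0.00047) and Dlk2, the paralogue of Dlk1, by 1.93 ± 0.28 (0.00025). Dlk2 passed the filter through the MEF and day 0 libraries, at 1.53 to 4.92 FPKM, against at most 0.875 in later ones. Its falls, which are part of the counts of this list, are therefore a description and no evidence of a change. The receptor gene Notch4 rose by 2.69 ± 0.85 (limma adjusted p = 0.025) and Notch3 by 1.15 ± 0.32 (0.014). Against day 7, 2 of the 11 were higher and 5 lower, beside 25.6% and 24.1% of all genes. At day 4 against day 0, 1 (Notch3) was higher and 3 lower, beside 12.3% and 10% of all genes.

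Among the thyroid hormone genes listed beside Dio3, the receptor gene Thra rose by 2.26 ± 0.31 at day 4 against day 0 (limma adjusted p = 0.00044). In iPSC against day 7, Thra fell by 2.44 ± 0.35 (limma adjusted p = 0.00029) and the hormone-responsive gene Klf9 rose by 1.84 ± 0.31 (0.00087). In iPSC against MEF, Klf9 was the only one of 5 tested that was called, higher by 2.30 ± 0.31 (limma adjusted p = 0.00017), beside 20.5% of all genes called higher.

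Other imprinted genes moved in both directions. Of 26 tested, 7 were higher and 10 lower in iPSC against MEF, beside 20.5% and 21.4% of all genes, with a median of -0.28. Igf2, a fetal growth factor, fell by 6.89 ± 0.35 (limma adjusted p = 2.1e-07), its neighbour H19 by 5.86 ± 0.34 (5.0e-07) and the cell cycle inhibitor Cdkn1c by 3.74 ± 0.58 (0.00043). Phlda2, which limits placental growth, rose by 4.34 ± 1.15 (limma adjusted p = 0.011), the adaptor gene Gab1 by 3.19 ± 0.20 (7.7e-07) and Snurf by 2.50 ± 0.61 (0.0068). H19 had 14.3 FPKM in KO iPSC and 11.2 in WT iPSC, against 841 in KO MEF and 612 in WT MEF. Against day 7, 6 were higher and 9 lower, beside 25.6% and 24.1% of all genes. At day 4 against day 0, 10 were higher and 2 lower, beside 12.3% and 10% of all genes, led by H19 (4.16 ± 0.30, limma adjusted p = 8.5e-06), Mest (4.13 ± 0.51, 0.00023) and Cdkn1c (2.98 ± 0.51, 0.0020).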

How the data were processed

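RNA abundance had been measured with stranded polyadenylated RNA libraries, per the labels' protocols. The deposited values are FPKM per gene and library, computed by the authors. Tools named were, per the submitters' processing notes, Cufflinks 2.2.1, SAMtools 0.1.16, TopHat2 2.0.10, FastQC and Bowtie 1.0.0, with the builds mm10 and GRCm38. The annotation, the strand setting of the counting and the read depth were not given in the sources used here, and no counting interval was computed. The most frequent ratio of low values put relative depths at 0.927 to 1.04 of WT MEF, but only 4.58% to 13.4% of ratios lay near it.

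Values were summed over 41 lines that shared 19 gene identifiers. Of 38734 genes, 37428 (96.6%) were matched to GENCODE M21. Tests used limma 3.58.1 in R 4.3.3 on log2(FPKM + 1), so that differences of low genes are understated, for genes whose mean FPKM reached 1, with a variance trend, 2-sided, and Benjamini-Hochberg adjustment over all genes (threshold 0.05). The script was tested on simulated data. Stage fits held all 17 libraries and genotype, and genotype and interaction fits held the 15 libraries before iPSC and stage. Figures were drawn with matplotlib 3.10.9.

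The members, gene lists, tests and alternatives were chosen with earlier results of these data known. Named genes are the 5 members in every library, transcripts and neighbours of the cluster, at most 3 called genes each way per list in comparisons that called a member, and the 10 genes with the highest correlation with Meg3 and with Dlk1, leaving out predicted genes, Rik clones and pseudogenes. Alternatives were a pseudocount of 0.1, no filter and a filter at 5, quantile normalization, upper-quartile scaling, no covariate, and leaving out genotypes, stages or the libraries that stood apart. For 1 listed gene the results are not reported here.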

Additional observations from a re-analysis of the deposited data

Results flagged for a closer look

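In 2 members the KO and WT averages moved in opposite directions between early and late stages, with every late library on the side of its average. Averaged on the log2 scale, Dlk1 on days 4, 6 and 7 against MEF and day 0 changed by -1.71 in KO and by 1.88 in WT, with every late KO library below the early KO mean and every late WT library above the early WT mean. Mirg changed by -1.09 in KO and by 0.58 in WT in the same manner. From day 0 to day 4 alone, KO rose as WT did, Dlk1 from 76.2 to 129 FPKM and Mirg from 18.6 to 21.4. The averages include WT MEF and WT day 4, which are among the 3 libraries that stood apart in sex-linked RNA. The interaction of limma did not pass the threshold for either (adjusted p = 0.088 for Dlk1 and 0.078 for Mirg).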

How the results depend on the processing

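Each group of 1 genotype and stage is a single library, so leaving out a genotype or a stage stands in for leaving out a replicate. Of 270 stage values of the members under alternatives, 245 kept their direction and side of the threshold, 16 lost the call and 2 gained it; of 266 genotype and interaction values, 248 kept both and 8 gained the call, all 8 in the KO interaction. The lost calls stand beside their results. A filter at 5 gave no value for Dio3, whose mean is lower.

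Signs turned only in differences that were not called. In day 0 against MEF, Dio3 was -0.0071 without WT and Meg3 -0.26 without the 3 WT libraries that stood apart. Rian in day 4 against day 0 was 0.098 without KO. In iPSC against day 7, Dio3 was 0.020 with no covariate and 0.48 without KO, and Mirg was 0.32 without WT and 0.15 without the 3 WT libraries. Dio3 in KO against WT was -0.052 at a pseudocount of 0.1, -0.078 after quantile normalization, -0.063 after upper-quartile scaling and -0.17 without day 6, and its KO interaction was -0.078 without day 6. In KI against WT, Dlk1 was -0.75 without the 3 WT libraries, -0.45 without MEF and -0.014 without day 0, and Mirg -0.20 without the 3 WT libraries and -0.15 without MEF. The cause was not tested.

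Counts of all genes called moved more. Leaving out a genotype gave 7 to 11 genes in day 0 against MEF (7 as reported), 871 (without WT) to 3274 in day 4 against day 0 (3182; 1005 without KI), 3 to 12 in day 7 against day 4 (3), 2367 (without WT) to 6934 in iPSC against day 7 (7082; 4361 without KI) and 2789 (without WT) to 4751 in iPSC against MEF (5955). Leaving out a stage or the other genotype gave 0 (without KI) to 86 (without MEF) in KO against WT (47; 9 without day 4 and 1 each without days 0, 6 and 7). It gave 30 (without day 0) to 43 in KI against WT (55; 32 without day 6). It gave 4 (without day 6) to 6607 (without day 4) in the KO interaction (11; 58 without MEF, 47 without day 0, 6 without day 7 and 7 without KI). In the KI interaction (10) it gave 3 (without day 6) to 164 (without day 4), with 56 without MEF and 60 without day 0. Without the KI libraries of days 4, 6 and 7 there were 3 in day 0 against MEF, 1899 in day 4 against day 0 and 1 in KO against WT. Without the 3 WT libraries there were 4120 in iPSC against day 7, 3896 in iPSC against MEF, 10 in KO against WT, 1334 in the KO interaction and 36 in the KI interaction. A pseudocount of 0.1 gave 4 in day 0 against MEF, 1 in day 7 against day 4 and 160 in KO against WT. With no filter these were 15, 5 and 27, and the KO interaction had 17. A filter at 5 gave 2, 1 and 26, and 28 in KI against WT. Quantile normalization gave 3 in day 0 against MEF and 1 in day 7 against day 4. Without the covariate there were 1 in day 7 against day 4, 6 in KO against WT, 101 in the KO interaction and 6 in the KI interaction. The stage fits hold genotype as a term and so compare stages within genotypes. No paired analysis by replicate number was possible because no group has a second library and the labels carry no replicate numbers.

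Single libraries, unknown read depth and unknown strand of counting limit all values. Of 45 single-library values under alternatives, 43 kept their call. The 2 that did not were Dio3 in KO against WT iPSC, at -1.22 after quantile normalization and -1.34 after upper-quartile scaling. Both sizes still passed 1, and the 5.11 FPKM in WT iPSC lay close to the 5 FPKM that the rule needs.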
